A study of Mus musculus with 8 samples.

Results

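Of 54532 genes in the corneal expression table, 2943 were small nucleolar, small Cajal body or small nuclear RNA genes (snoRNA, scaRNA and snRNA), and 57 of these had a mean level of at least 5 over all 8 corneas. These 57 genes, described here, were 26 snoRNA, 8 scaRNA and 23 snRNA genes by the GENCODE vM21 annotation of the mouse genome build GRCm38. The level was the rlog, the regularized logarithm of DESeq2, which is on a log2 scale, is normalized for library size and pulls the values of weakly covered genes towards the mean of the gene. The genes were chosen by their level alone, so the levels are given as a description. Gm22513 was named in advance because it differed between the strains, and its difference is therefore also given without a test.

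snoRNAs guide chemical changes on other RNAs, mainly ribosomal RNA, in the nucleolus. Box C/D snoRNAs carry the C and D boxes and direct 2′-O-methylation, whereas box H/ACA snoRNAs fold into hairpins followed by the H and ACA boxes and direct pseudouridylation. scaRNAs use the same boxes in Cajal bodies, where they modify the snRNAs. The snRNAs U1, U2, U4 and U6 are parts of the major spliceosome, U11 and U12 belong to the minor spliceosome, and U7 takes part in histone mRNA processing. In mammals most snoRNAs and many scaRNAs are cut out of the introns of host genes, while most snRNAs, apart from copies that lie in other genes, have promoters of their own.

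Total RNA was sequenced from naive corneas, meaning corneas without any treatment, of 2 inbred mouse strains. There were 4 corneas of BALB/cN mice, a strain spelled Balb/c in the sample labels, and 4 of C57BL/6N mice, and neither group carried an engineered allele or received an agent. All sequenced mice were male. An age is stated for the mice of both strains that were phenotyped, but not separately for those sequenced, and the sources do not say whether any of the corneas came from the same animal, so p-values measure the spread between these corneas. The comparison of the strains addressed which genes differ in expression between a strain with few and a strain with many corneal lymphatic vessels.

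The corneas differed in the RNA levels of cell type markers. Epithelial markers (Krt12, Krt5 and 4 others) had a mean rlog between 16.9 and 17.1 in all 8 corneas, so the labelled tissue had its defining markers. BALB/cN replicate 2 and C57BL/6N replicates 3 and 4 had mean stromal keratocyte levels between 11.8 and 12.7, compared with 14.5 to 14.8 in the other corneas. BALB/cN replicates 1 and 4 had lens marker levels of 8.08 and 7.04, while no other cornea passed 5.68. They also had the highest pigment cell marker levels, 10.95 and 11.91, while no other cornea passed 9.21. The fits below in corneas low in lens markers therefore also left out the corneas highest in pigment cell markers. The 4 genes listed as conjunctival markers (Krt13, Krt4, Krt19 and Muc4) all fell in BALB/cN. Krt13 was at 10.9 to 11.2 compared with 13.3 to 13.8 in C57BL/6N. Each had a limma adjusted p of 0.00631 or less, while 2.91% of all tested genes were lower at 0.01 or less. Muc4 had a mean rlog of 19.6, near the 19.7 of the epithelial marker Krt12, so it is no specific marker of conjunctiva here. Whether the fall of these genes reflects less conjunctiva was not tested. The part of cell makeup in the differences described here was not tested beyond the fits named beside them. In whole corneas, fewer cells of a type and less RNA per cell cannot be told apart.

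The sequences of 8 small RNA genes carry the results that follow. They are the GENCODE transcript sequences on GRCm38, from 5′ to 3′ on the gene's own strand, with T in place of U. The first set is shown because Gm22513 is a U1 copy, and reads from nearly identical copies cannot be assigned safely. Gm22513 lies at chr12:54696782-54696945 on the plus strand, and its copy Gm24305 at chr12:54734555-54734718 on the minus strand. The reference U1 gene Rnu1a1 lies at chr11:87422867-87423030 on the plus strand. Capitals mark the positions at which the 3 genes are not all alike.
Gm22513: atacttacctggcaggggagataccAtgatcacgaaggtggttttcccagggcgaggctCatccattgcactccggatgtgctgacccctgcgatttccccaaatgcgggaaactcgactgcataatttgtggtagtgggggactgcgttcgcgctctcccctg
Gm24305: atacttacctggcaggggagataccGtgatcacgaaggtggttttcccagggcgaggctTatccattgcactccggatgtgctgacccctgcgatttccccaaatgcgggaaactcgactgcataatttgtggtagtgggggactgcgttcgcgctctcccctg
Rnu1a1: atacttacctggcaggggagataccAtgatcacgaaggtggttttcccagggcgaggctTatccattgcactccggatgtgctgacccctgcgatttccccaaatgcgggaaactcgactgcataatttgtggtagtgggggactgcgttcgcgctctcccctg
Gm22513 and Rnu1a1 were alike at all but 1 of 164 positions (C60T, with Gm22513's base first and positions counted from the 5′ end). Gm22513 and Gm24305 differed at A26G and C60T. All 3 held ACTTACCT at positions 3 to 10, the stretch of U1 that pairs with the 5′ splice site, which 4.34% of 1383 annotated snRNA genes also held on their own strand.

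The second set shows the guide RNAs that differed most between the strains. Gm24727 lies at chr8:33691801-33691944 on the plus strand within the glutathione reductase gene Gsr, and Gm25117, a related gene, at chr10:111481493-111481636 on the plus strand within Nap1l1. Scarna13 lies at chr12:105031075-105031349 on the minus strand within the noncoding gene Snhg10. In Gm24727 and Gm25117 capitals mark a match to the H box and the ACA box, and in Scarna13 the ACA box.
Gm24727: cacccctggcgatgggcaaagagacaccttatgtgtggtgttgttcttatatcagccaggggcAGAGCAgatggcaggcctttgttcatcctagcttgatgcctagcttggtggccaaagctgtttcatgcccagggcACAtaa
Gm25117: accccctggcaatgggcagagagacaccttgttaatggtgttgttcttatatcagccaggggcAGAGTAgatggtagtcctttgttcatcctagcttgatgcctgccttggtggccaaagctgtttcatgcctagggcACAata
Scarna13: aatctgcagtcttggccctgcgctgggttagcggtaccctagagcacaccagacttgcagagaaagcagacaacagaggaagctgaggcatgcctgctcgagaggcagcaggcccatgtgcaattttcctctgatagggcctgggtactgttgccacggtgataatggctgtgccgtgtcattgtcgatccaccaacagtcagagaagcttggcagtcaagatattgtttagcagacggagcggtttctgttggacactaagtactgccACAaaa
Gm24727 and Gm25117 had the same length of 144 bases and were 88.9% identical, with 16 differing positions.

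The last set holds 2 box C/D genes, one above and one below its C57BL/6N level in BALB/cN. Gm24339 lies at chr9:15326464-15326539 on the minus strand within Cep295. Snord104 lies at chr11:106500993-106501062 on the plus strand, outside any gene that was taken as a host. Capitals mark the C box (TGATGA) and the D box (CTGA).
Gm24339: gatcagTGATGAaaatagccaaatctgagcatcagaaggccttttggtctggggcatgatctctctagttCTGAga
Snord104: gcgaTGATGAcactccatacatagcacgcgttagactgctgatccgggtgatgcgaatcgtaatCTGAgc
Among the 26 snoRNA genes, 6 held TGATGA in their first 25 bases and CTGA in their last 20 bases, compared with 20.6% of 1507 annotated snoRNA genes. An H box (ANANNA, at 40 to 110 bases from the end) together with ACA in the last 8 bases was found in 15 of the 26, compared with 41.1% of the annotated genes. Only the gene's own strand was searched, and a match is a description of the letters and no proof of a guide RNA.

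Most of the 57 genes had similar levels in both strains. At an adjusted p of 0.01 or less (limma with Benjamini-Hochberg adjustment over all 25402 tested genes), 2 of the 56 genes other than Gm22513 were called, both lower in BALB/cN, compared with 5.74% of all tested genes in either direction, 2.83% higher and 2.91% lower. Among the 15682 tested genes with a mean of at least 5, as these had, 8.51% were called. At the looser limit of 0.05, 2 of the 56 were higher and 5 lower, compared with 5.56% and 5.63% of all tested genes. With Gm22513, whose difference had chosen it, the counts of lower genes are 3 of 57 and 6 of 57, and nothing is read from its part in them. The median difference, BALB/cN minus C57BL/6N, was 0.0036 over the 57 genes and 0.0077 over all tested genes (log2), and 53 of the 57 differed by less than 0.5. The levels of both strains did not overlap for 7 genes that were lower, Gm22513 included, and 3 that were higher in BALB/cN, compared with 9.58% and 8.75% of all tested genes, 18.3% together.

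**Figure D1:**
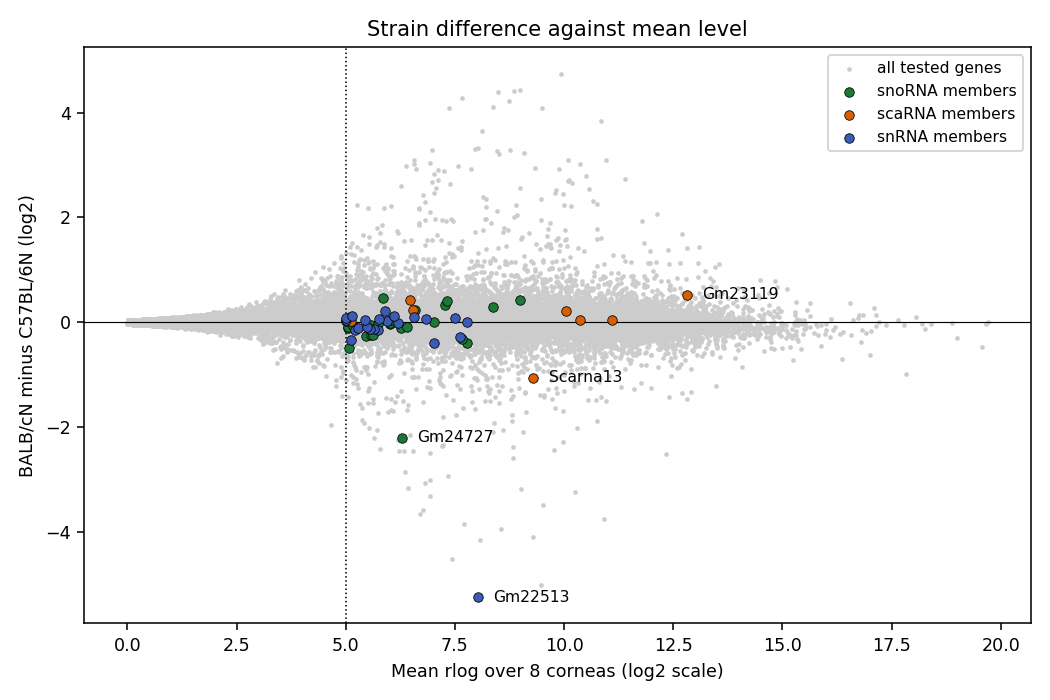
Strain difference (BALB/cN minus C57BL/6N, log2) against the mean rlog over 8 corneas, with all 25402 tested genes in grey and the 57 small RNA genes coloured by class. The dotted line marks the mean of 5, and Gm22513, Gm24727 and Scarna13 lie below the other small RNA genes, at -5.25, -2.21 and -1.06.

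The mean of 5 was reached in both strains by 51 of the 57 genes. Gm22334, Gm24784 and Gm23734 were below it in BALB/cN, and Snord32a, Gm26064 and Gm26403 in C57BL/6N. Just inside the limit were Gm26064 (mean rlog 5.002), Gm26403 (5.003) and Snord32a (5.005), whereas Gm26375 (4.97), Gm26049 (4.95) and Gm24305 (4.93) were just outside. Of the other small RNA genes, 686 had lower means and 2200 were listed at 0 in every cornea.

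Of the snRNA genes, Gm22513 (ENSMUSG00000096349) stood apart. Its rlog was 5.33, 5.34, 5.52 and 5.39 in the BALB/cN corneas and 10.92, 10.58, 10.50 and 10.59 in the C57BL/6N corneas. Every C57BL/6N cornea was thus far above every BALB/cN cornea, and the means were 5.39 ± 0.087 and 10.6 ± 0.185 (SD, n = 4 each), a difference of -5.25. The rlog pulls values towards the mean, so the difference before this step may have been larger.

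Gm22513 had 21 near-identical copies in the annotation (at least 95% identity over at least 90% of its length), of which 11 were not at 0 in every cornea. The copy with the highest level was Gm24305, which lies on the same chromosome and just missed the mean of 5. It had an rlog of 4.44, 4.38, 4.49 and 4.45 in BALB/cN and 5.99, 5.55, 4.98 and 5.16 in C57BL/6N. Again no BALB/cN cornea reached the lowest C57BL/6N cornea, and the gene fell by 0.98 in BALB/cN (SE 0.191, limma adjusted p = 0.00944). This call was lost when any single BALB/cN cornea or C57BL/6N replicate 2 or 4 was left out (adjusted p up to 0.0320). The other 10 copies had mean levels between -2.10 and 3.96 and differences between -0.11 and 0.024, and none of the 6 that were tested was called (lowest limma adjusted p = 0.317). Among them was Gm23804, which lies between Gm22513 and Gm24305 on chromosome 12 and differs from Gm22513 only at C60T. Its mean level was 0.051 and its difference 0.011 (limma adjusted p = 0.765). How reads that match several U1 copies were counted is not given in the sources used here, so the levels of Gm22513 and Gm24305 are uncertain, and the part of read assignment was not tested.

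The protein-coding genes on both sides of Gm22513 had much smaller differences and were not called. Eapp, on its left, had levels between 10.2 and 10.5 in BALB/cN and between 10.5 and 10.6 in C57BL/6N, a difference of -0.19 (SE 0.0684, limma adjusted p = 0.129). Its strains did not overlap, as for 18.3% of all tested genes, but only just (highest BALB/cN cornea 10.4770, lowest C57BL/6N cornea 10.4778). Snx6, on its right, differed by -0.10 (SE 0.0686, limma adjusted p = 0.438).

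**Figure D2:**
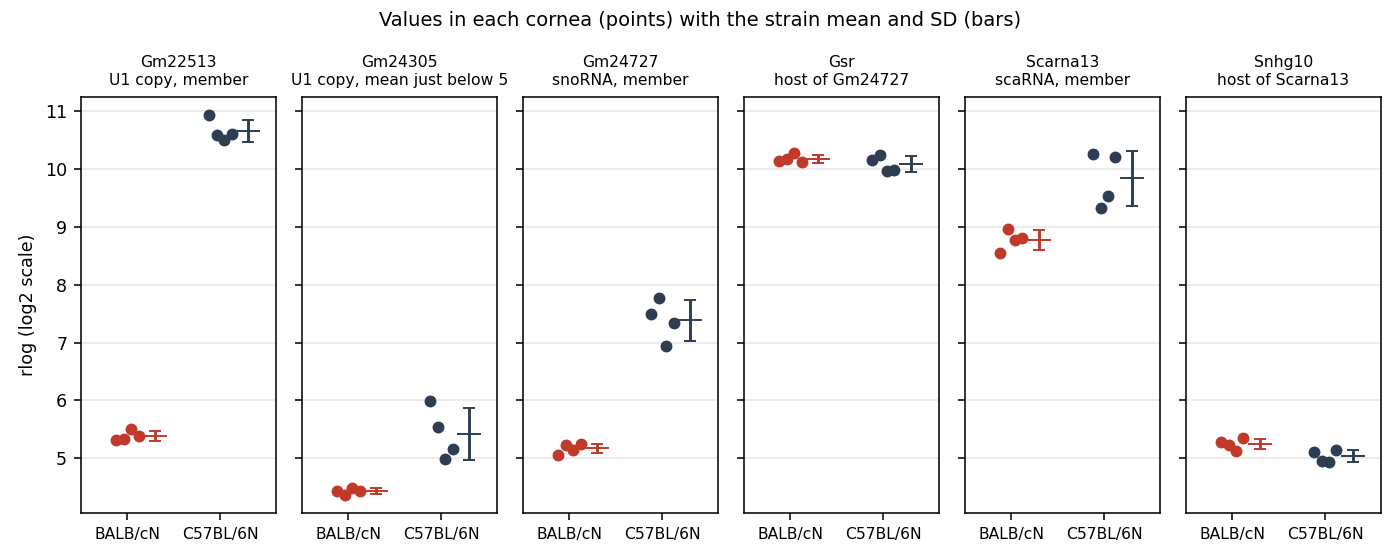
rlog in each cornea (points) with the strain mean and SD (bars, n = 4) for Gm22513, its copy Gm24305, Gm24727 with its host Gsr, and Scarna13 with its host Snhg10. The strains do not overlap for the 4 small RNA genes, while Gsr lies near 10 in both strains.

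None of the remaining 22 snRNA genes was called, compared with 5.74% of all tested genes and 8.51% of those with a mean of at least 5. The 22 genes differed by -0.40 to 0.21, with a median of 0.017. By the most similar named gene, 11 snRNA genes resembled U6, 3 resembled U1 (Gm22513 included), 2 resembled U2 and 1 resembled U7. Gm24265 and Gm24407, a pair on chromosome 5, were 98.6% identical to each other. They were labelled U4 by hand, and the label was not tested against a U4 sequence. Like Gm23121 and Gm24060, they had no named match in the search.

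U6 is the catalytic snRNA and its sequence is present in many copies. Its 11 relatives were 107 bases long or close to it (100 to 112). Their nearest named sequence was Rnu6 or Rnu6-ps2, with 75.4% to 99.1% identity over the aligned part. That part was 61.9% to 100% of the gene's length, so the identity does not hold for the full length of each. Gm22935 within Fdps, the farnesyl diphosphate synthase gene, had the highest level among them. Its rlog was 7.43, 7.55, 7.59 and 7.27 in BALB/cN and 7.90, 7.79, 7.84 and 7.47 in C57BL/6N, so that the strains overlapped (difference -0.29, SE 0.113, limma adjusted p = 0.153). Gm23864, within the collagen receptor gene Ddr1, had no overlap, with 6.91, 6.96, 6.76 and 6.68 in BALB/cN and 7.02, 7.15, 7.33 and 7.39 in C57BL/6N. The lowest C57BL/6N cornea was only slightly above the highest BALB/cN cornea, and the difference of -0.40 was not called (SE 0.107, limma adjusted p = 0.0435). Gm22063, within Cbfb, was 99.1% identical to Rnu6 and had 181 near-identical copies, 55 of them not at 0, so its level is uncertain.

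The minor spliceosome RNAs were not called. Rnu11, the gene of U11, had 7.94, 7.37, 7.54 and 8.27 in BALB/cN and 7.97, 7.84, 7.42 and 7.85 in C57BL/6N. The C57BL/6N corneas lay within the wider range of the BALB/cN corneas (difference 0.010, SE 0.197, limma adjusted p = 0.984). Rnu12, the gene of U12, differed by 0.023 (SE 0.132, limma adjusted p = 0.940). All 134 bases of Rnu11 lie opposite an exon of another gene, and the strand setting of the counting is not given in the sources used here, so reads of both genes cannot be told apart. Gm24784, within the cell adhesion gene Chl1, resembled U7 (83.7% identity over 79.0% of its length) and differed by -0.34 (SE 0.150, limma adjusted p = 0.205).

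Among the 26 snoRNA genes, 1 was called, compared with 5.74% of all tested genes and 8.51% of those with a mean of at least 5. The called gene was the H/ACA gene Gm24727 (ENSMUSG00000088856). Its rlog was 5.06, 5.22, 5.15 and 5.25 in BALB/cN and 7.49, 7.77, 6.93 and 7.34 in C57BL/6N. The SD was 0.0837 in BALB/cN and 0.349 in C57BL/6N, and no BALB/cN cornea reached the lowest C57BL/6N cornea. Gm24727 fell by 2.21 in BALB/cN (SE 0.159, limma adjusted p = 2.07e-05). It was called in each fit that left out 1 cornea (differences from -2.36 to -2.08, highest adjusted p 0.000218), also in the 5 corneas rich in stromal markers and in the 6 low in lens markers. Its single near-identical copy, Gm23123, was 98.6% identical and had a level between -1.38 and -1.33 in every cornea.

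The host of Gm24727 did not follow it. Gsr, which encodes the enzyme that regenerates reduced glutathione, had 10.13, 10.16, 10.27 and 10.11 in BALB/cN and 10.14, 10.23, 9.96 and 9.98 in C57BL/6N. The strains overlapped, and Gsr differed by 0.088 (SE 0.0752, limma adjusted p = 0.528). Gm25117 and Gm25291, 88.9% and 93.8% identical to Gm24727, differed by 0.46 and 0.033, and neither was called (limma adjusted p = 0.108 and 0.911).

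No other H/ACA snoRNA gene was called. The 15 snoRNA genes with H and ACA boxes, Gm24727 included, had a median difference of -0.059. Snora73b, a U17 gene within Rcc1 that takes part in ribosomal RNA processing, had 7.44, 7.02, 6.83 and 6.81 in BALB/cN and 7.21, 6.93, 7.10 and 6.85 in C57BL/6N. These ranges overlapped almost fully (difference 0.0036, SE 0.149, limma adjusted p = 0.993), and all 205 bases lie opposite an exon of another gene, as for Rnu11. Snora23, within the importin gene Ipo7, differed by -0.011 (SE 0.113, limma adjusted p = 0.967).

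Gm22303 and Gm25188 were 97.5% identical to each other and lie in different hosts, Rock2 and Sh3d19. They differed between strains by -0.33 and -0.087, and reads may be shared between them. Gm22334, within Trpc4ap, was the snoRNA gene closest to the limit. It had 4.78, 4.91, 4.93 and 4.68 in BALB/cN and 5.16, 5.26, 5.45 and 5.41 in C57BL/6N, without overlap. The difference of -0.50 missed the threshold (SE 0.0990, limma adjusted p = 0.0105). It was called in 4 of the other fits, the one with the stromal score as a covariate among them. Trpc4ap itself fell by 0.31 (limma adjusted p = 0.00392), and Gm22334 minus Trpc4ap differed by -0.18 (limma adjusted p over pairs = 0.179).

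None of the 6 snoRNA genes with both C and D boxes by the search above was called, compared with 5.74% of all tested genes. The search can miss box C/D genes: Gm24494, 81.0% identical to Snord45c, had no match. Gm24339 had the highest level of the snoRNA genes, with 9.15, 9.20, 9.13 and 9.30 in BALB/cN and 8.58, 8.84, 8.94 and 8.75 in C57BL/6N. All BALB/cN corneas were above all C57BL/6N corneas, but the difference of 0.42 missed the threshold (SE 0.0865, limma adjusted p = 0.0130). It was called in 3 other fits: without C57BL/6N replicate 3 (difference 0.47, limma adjusted p = 0.00938), with the robust fit (difference 0.42, limma adjusted p = 0.00916) and with the stromal covariate (difference 0.445, limma adjusted p = 0.00376). Snord104 had 7.52, 7.73, 7.47 and 7.58 in BALB/cN and 7.92, 7.92, 8.14 and 7.91 in C57BL/6N. Here each BALB/cN cornea was lower, and the difference was -0.40 (SE 0.0885, limma adjusted p = 0.0185).

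Snord15a, within the ribosomal protein gene Rps3, had 7.80, 7.59, 7.20 and 7.49 in BALB/cN and 7.35, 7.09, 6.92 and 7.12 in C57BL/6N. BALB/cN was higher on average by 0.40 with overlap (SE 0.138, limma adjusted p = 0.108). Snord17, within Snx5, had 8.03, 7.42, 7.16 and 7.16 in BALB/cN and 6.96, 7.30, 7.35 and 6.82 in C57BL/6N. BALB/cN replicate 1 was far above the other corneas of both strains (difference 0.33, SE 0.204, limma adjusted p = 0.369). Snord32a, within Rpl13a, differed by 0.019 (SE 0.125, limma adjusted p = 0.948).

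The scaRNA genes included the highest levels of all 57, also per length. They were 79 to 414 bases long, and the snoRNA genes 70 to 238. The extraction recovers short RNAs poorly, which dividing by length does not correct, so class and recovery cannot be told apart. Per kilobase of annotated length (rlog minus the log2 of the length in kilobases), Gm23119 had a mean of 15.6, Gm22442 12.8, Gm22009 12.6 and Scarna2 11.6, compared with 12.7 for Gm24339, the highest of the snoRNA genes. Of the 8 scaRNA genes, 7 had higher means in BALB/cN, compared with 29 of all 57. None of these 7 was called, and the only call was Scarna13, which was lower. With 8 genes, 1 call cannot be set apart from the 5.74% called of all tested genes. The median difference was 0.13.

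Scarna13 had an rlog of 8.55, 8.95, 8.76 and 8.80 in BALB/cN and 10.26, 9.33, 9.54 and 10.21 in C57BL/6N. The C57BL/6N corneas formed a high and a low pair, and even the low pair was above BALB/cN. Scarna13 fell by 1.06 in BALB/cN (SE 0.205, limma adjusted p = 0.00887). The call was close to the limit: it was lost in 7 of the 8 fits that left out 1 cornea, all but the one without C57BL/6N replicate 2 (adjusted p between 0.00335 and 0.0344, differences between -1.23 and -0.92). It was also lost in the 5 corneas rich in stromal markers (difference -1.09, limma adjusted p = 0.0532) and in the 6 low in lens markers (difference -0.97, limma adjusted p = 0.127). Snhg10, its host, had 5.28, 5.24, 5.14 and 5.35 in BALB/cN and 5.11, 4.95, 4.94 and 5.14 in C57BL/6N. The strains overlapped slightly, and the difference of 0.22 was not called (SE 0.0874, limma adjusted p = 0.169). Scarna13 was the only gene of the 57 that shared bases with an exon of another gene on its own strand, the microRNA gene Mir3069.

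Gm23119 had 13.02, 13.14, 13.11 and 13.02 in BALB/cN and 12.07, 12.72, 12.89 and 12.51 in C57BL/6N. All BALB/cN corneas were higher, but C57BL/6N was widely spread, and the difference of 0.53 was not called (SE 0.148, limma adjusted p = 0.0505). With the stromal covariate it was called (difference 0.59, limma adjusted p = 0.00919). Its neighbour on chromosome 18, Scarna17, differed by 0.23 (SE 0.118, limma adjusted p = 0.286). Scarna2 differed by 0.042 (SE 0.144, limma adjusted p = 0.896), although BALB/cN replicate 1, at 10.78, was above the other BALB/cN corneas (10.19 to 10.34). Gm22009, within the importin gene Kpna4, was among the steadiest genes, with 11.05 to 11.20 in BALB/cN and 10.94 to 11.18 in C57BL/6N.

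**Figure D3:**
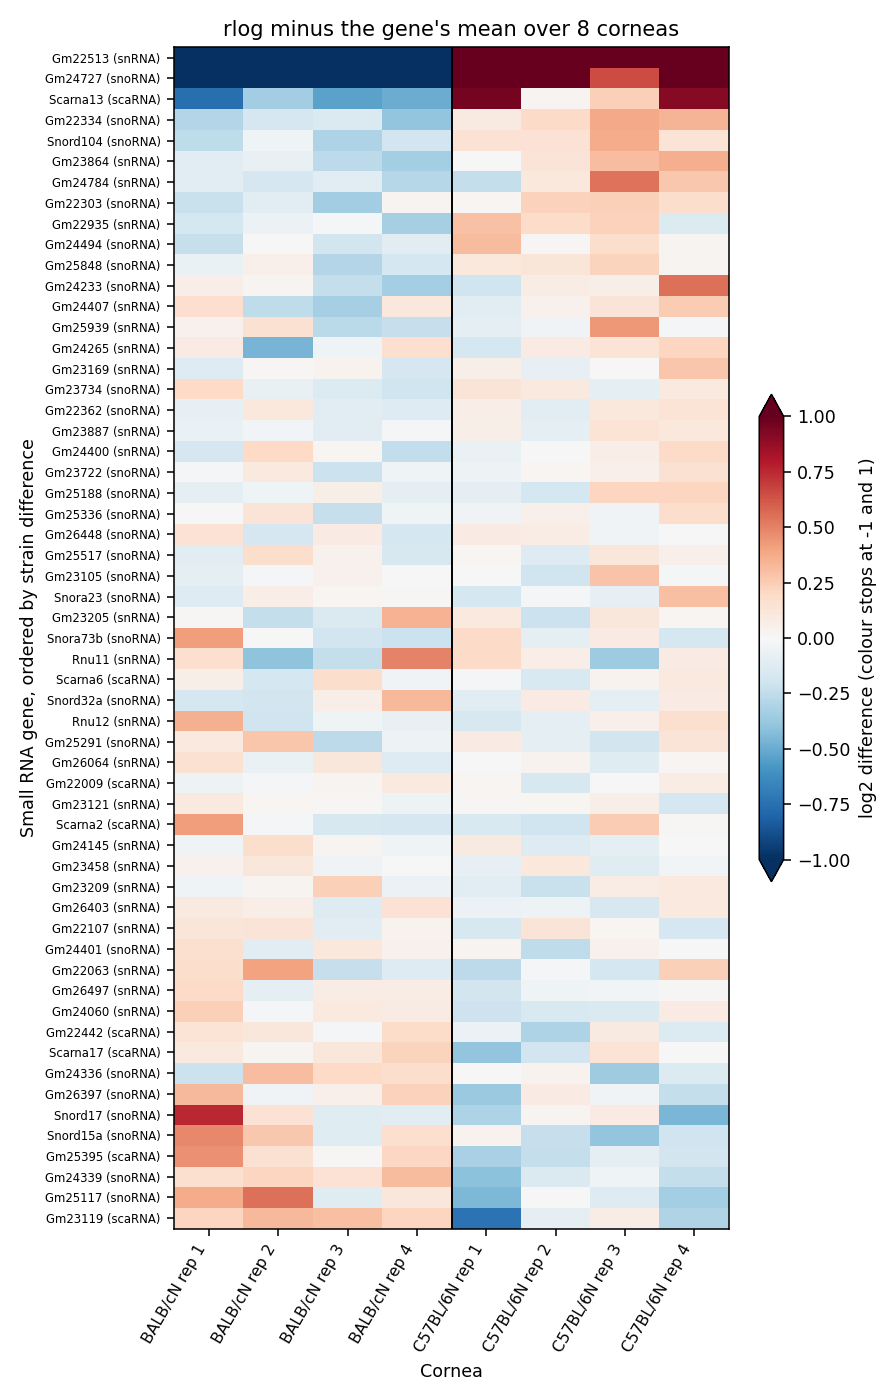
rlog of each of the 57 genes in each cornea minus the gene's mean over 8 corneas (colour, log2, ending at -1 and 1), ordered by strain difference. Gm22513, Gm24727 and Scarna13 stand at the top, and most other rows show both colours in both strains.

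A host gene, one that contains the whole small RNA gene on the same strand, was found for 48 of the 57 genes, compared with 391 of the 686 genes of lower level and 549 of the 2200 genes at 0. Of these hosts 45 entries were protein-coding and 3 were long noncoding genes, and they came to 47 different hosts, since Atg16l1, an autophagy gene, held both Scarna6 and Gm25395. The median of the hosts' mean levels was 11.3 for the 57 genes, 9.66 for the genes of lower level and 4.11 for those at 0. Because reads from an unspliced host transcript can fall on a small RNA gene within its intron, the level of such a gene and of its host's intron cannot be told apart here. Among the 57 genes themselves, the level did not rise with that of the host (Pearson r = 0.037 over 48 pairs, a description across genes that share the same 8 libraries).

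The difference between each small RNA gene and its host was tested in 352 pairs. The share called at an adjusted p of 0.01 or less was 7.95% (28 pairs), 5.4% higher and 2.56% lower relative to the host in BALB/cN. Of the 48 pairs of the genes described here 4 were called. Most of the other called pairs held small RNA genes of low level. With means of at least log2 of 10, 7 of 138 pairs were called. Gm24727 fell relative to Gsr by 2.30 (SE 0.122, limma adjusted p = 1.07e-06), and Scarna13 relative to Snhg10 by 1.28 (SE 0.175, limma adjusted p = 0.000875). Gm22442 rose relative to Chd3, a chromatin remodeller, by 0.54 (SE 0.0875, limma adjusted p = 0.00214), and Gm25395 rose relative to Atg16l1 by 0.56 (SE 0.0985, limma adjusted p = 0.0036). Neither of the latter small RNA genes was called by itself. In the 6 corneas low in lens markers the call of the Scarna13 pair was lost (-1.13, limma adjusted p = 0.0242).

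Gm22442 had 10.18, 10.16, 10.04 and 10.23 in BALB/cN and 9.99, 9.74, 10.14 and 9.91 in C57BL/6N, while Chd3 had 13.29, 13.43, 13.32 and 13.32 and then 13.57, 13.52, 13.86 and 13.73. The small RNA gene was thus slightly higher and the host lower in BALB/cN. Gm25395 had 6.93, 6.64, 6.50 and 6.69 in BALB/cN and 6.16, 6.25, 6.39 and 6.30 in C57BL/6N. The strains did not overlap (difference 0.41, SE 0.108, limma adjusted p = 0.0372), whereas the second gene within Atg16l1, Scarna6, differed by 0.015 (SE 0.100, limma adjusted p = 0.951). Both calls were lost in some of the fits that left out 1 cornea: in 2 of 8 for Gm22442 and in 4 of 8 for Gm25395 (highest adjusted p 0.0122 and 0.0126). They were also lost in the 5 corneas rich in stromal markers (limma adjusted p = 0.0711 and 0.0347) and in the 6 low in lens markers (0.0363 and 0.0373).

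Over the 48 pairs the difference of the small RNA gene and that of the host had a Pearson r of 0.097 and a Spearman rho of 0.33. Without Gm24727 and Scarna13, which were left out after their values had been seen, the Pearson r was 0.50 over 46 pairs. Of the 48 pairs, 28 had the same sign in both, and 44 had a small RNA minus host difference of less than 0.5 in size. Of the 47 hosts 3 were called, near the background of 5.74% of all tested genes and 8.51% of those with a mean of at least 5. They were Fbxo45 (difference -0.58), Fdps (-0.54) and Trpc4ap (-0.31), all lower in BALB/cN. Their small RNA genes Gm25848, Gm22935 and Gm22334 differed by -0.24, -0.29 and -0.50. The call of Fdps was lost in each fit that left out 1 cornea.

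**Figure D4:**
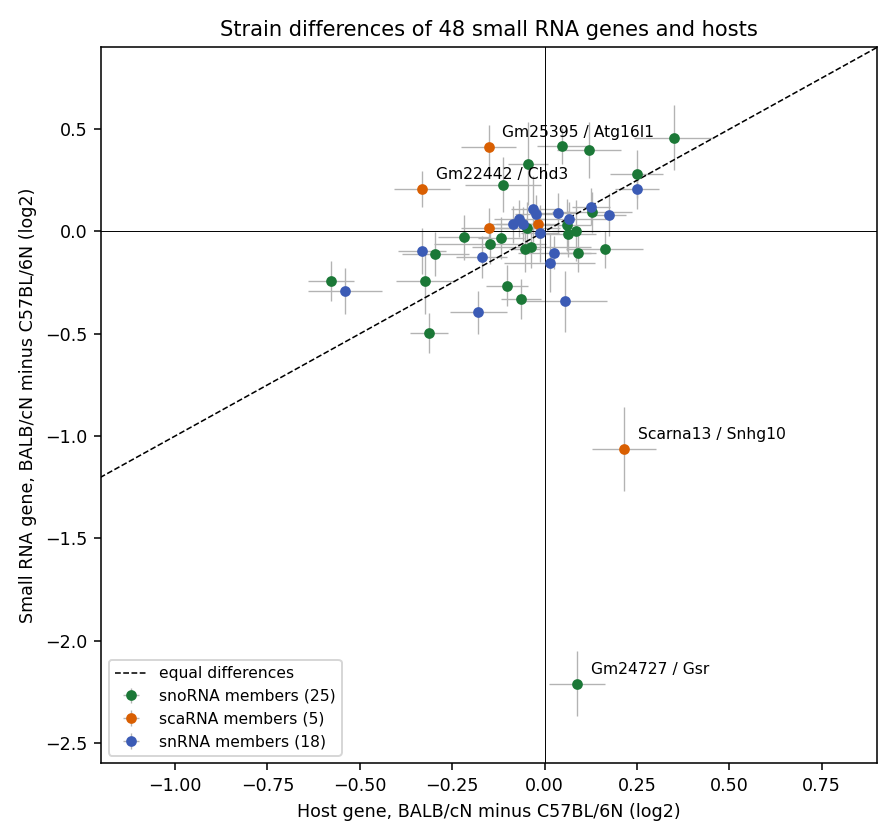
Strain difference (log2, with SE) of 48 small RNA genes against that of their hosts, coloured by class, with a dashed line where both are equal. Gm24727 and Scarna13 lie far below the line, at -2.21 and -1.06, while their hosts differ by 0.088 and 0.22.

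In the 24 other called pairs the small RNA gene had a mean level between 0.018 and 4.45 and itself differed by at most 0.16, while the hosts differed by 0.23 to 1.45. In each of these pairs the host differed more than the small RNA gene. The rlog pulls such low values towards the mean of the gene, so these pair differences mainly restate those of the hosts. Nothing is read from them about the small RNA genes. The furthest apart were Snord72 within Rpl37 (small RNA minus host -1.43, limma adjusted p = 2.12e-05) and Snord83b within Rpl3 (1.01, limma adjusted p = 0.000795). Snord72 itself differed by 0.024 and Snord83b by -0.065, and Rpl37 and Rpl3, both genes of the large ribosomal subunit, by 1.45 and -1.07. After these came Gm22748 within Odc1 (0.74), Gm22865 within Tmem62 (0.71), Gm24736 within Alk (0.70) and Gm25411 within Map2 (0.69), all higher relative to the host, and AF357399 within Rps16 (-0.83) and Gm23200 within Samd12 (-0.64), both lower.

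The protein partners of these RNAs were compared in the same fit. Of 87 tested genes in 8 lists, 1 was called, compared with 5.74% of all tested genes and 8.51% of those with a mean of at least 5, with a median difference of 0.0036 over all of them. Pih1d1, a subunit of the R2TP complex that assembles box C/D particles, had 9.88 to 10.07 in BALB/cN and 9.48 to 9.68 in C57BL/6N, and rose by 0.39 (SE 0.0678, limma adjusted p = 0.00485). The call was lost in 7 of 8 fits that left out 1 cornea (highest adjusted p 0.0190), and also in the 5 corneas rich in stromal markers (limma adjusted p = 0.0437). None of the 4 box C/D core proteins (Fbl, Nop56, Nop58, Snu13) or of the 4 box H/ACA core proteins (Dkc1, Nhp2, Nop10, Gar1) was called, with differences from -0.18 to 0.027 and from -0.060 to 0.14.

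The other lists held no called gene. The Sm ring, which binds most snRNAs, had 0 of 8 called and a median difference of 0.26, with Snrpb at 0.33 (limma adjusted p = 0.0127) and Snrpg at -0.43 (limma adjusted p = 0.0225). The LSm ring with the La protein had 0 of 8, the proteins specific to single snRNPs 0 of 18, the SMN complex, which loads Sm rings, 0 of 9, and the factors for snRNA transcription, processing and export 0 of 22. The other 13 assembly and Cajal body factors included Coil, the scaffold protein of Cajal bodies, at -0.33 (limma adjusted p = 0.0104). Of the long noncoding host genes, such as Gas5 and Snhg1, 0 of 16 were called, compared with 5.74% of all tested genes. Their differences lay between -0.23 and 0.32.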

How the data were processed

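Strand-specific libraries were made from corneal total RNA, with 4 corneas for each strain, after extraction on silica columns, which recover RNAs as short as these poorly. The authors removed ribosomal and transfer RNA reads, aligned the rest with TopHat2 (2.1.1) to versions of GRCm38 carrying the variants of each strain, counted reads on gene exons with HTSeq (0.7.1) on the Ensembl 94 gene model, and deposited the rlog (log2) values of DESeq2 (1.30). The table holds no counts, so the depth of each cornea is unknown here. No column of values was left unused (0 of them).

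From the deposited log2 values, strain differences were fitted with limma (3.58.1) in R (4.3.3), with a variance trend, over 25402 genes with a mean rlog of at least 0, Benjamini-Hochberg adjusted, and called at 0.01. Small RNA minus host differences were fitted the same way over 352 pairs. Annotation was GENCODE vM21, and copies were found with BLAST (2.17.0). Both fits were tested on made-up values with known changes. The alternatives were other fits, filters, scalings, thresholds, host and member rules, a stromal covariate, a replicate block and leaving out corneas; 2 sets of corneas were chosen after seeing the data.

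The small RNA genes and the gene lists were chosen with earlier results of these data known. The genes named were Gm22513, the called genes, the 3 of highest level in each class (Snord, Snora, Scarna and snRNA genes), those next to the limit of 5, hosts of at least 3 of the small RNA genes (none had so many), the hosts of named genes, called genes of the protein lists and the called pairs among the 5 largest in either direction. Other genes were named after their values were seen.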

Additional observations from a re-analysis of the deposited data

Results flagged for a closer look

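In 68 groups of 4 corneas (34 named genes in both strains), 1 value stood far from the others of its group, where chance alone would mark about 1 group in 20, or 3.4. Snord104 was 8.14 in C57BL/6N replicate 3, compared with 7.92 in the nearest of the other C57BL/6N corneas, a gap of 0.944 of the group's range. This cornea was also among those low in stromal markers, and the part of cell makeup in this value was not tested.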

How the results depend on the processing

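The count of small RNA genes lower in BALB/cN, 3 with Gm22513, which was chosen for its difference, was 2 or 3 with any 1 cornea left out, 0 with a recalibrated (empirical null) p and 6 at an adjusted p of 0.05. It was 2 with no filter on the mean and 4 with means of at least log2 of 10, where Gm22334 joined. Gm22334 also joined with the stromal covariate. The count higher in BALB/cN, 0 in the report, was 1 with the robust fit, 2 with the stromal covariate, 2 at an adjusted p of 0.05, and 0 or 1 with a cornea left out. The recalibrated p called no gene at all among 25402, where 1725 had an unadjusted recalibrated p under 0.05. Of the pairs, 19 higher and 9 lower became 3 and 4 with means of at least log2 of 10, 0 and 0 with the recalibrated p, 11 and 9 in the corneas rich in stromal markers, and 1 and 2 in those low in lens markers. They were 10 to 16 and 5 to 7 with a cornea left out, the lower pairs 16 with the stromal covariate and 17 at an adjusted p of 0.05. The count of protein genes called, 1 in the report, was 2 without the variance trend, with the robust fit, without a filter and with means of at least log2 of 10, 4 with the stromal covariate and 6 at an adjusted p of 0.05. It was 0 with median centring, with the recalibrated p and in the corneas low in lens markers, and 0 to 2 with a cornea left out. The median difference moved from 0.0036 over the small RNA genes to -0.070 with median centring and -0.070 with quantile normalization, and over all tested genes from 0.0077 to -0.066, -0.0080 and, in the corneas low in lens markers, -0.0050. These medians ran from -0.028 to 0.0060 and from 0.0040 to 0.011 with a cornea left out. The cause of these changes was not tested.

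The labels do not say that the replicate number pairs the corneas. Same-numbered corneas had correlations between their deviations from the strain means of 0.306, -0.530, -0.203 and -0.454. Each value rests on a single pair of corneas, and the corneas also differ in stromal markers. These correlations therefore cannot decide whether a number marks a shared day or litter, which was not tested. With the replicate block 554 genes were called, 2 small RNA genes (Gm24727 and, with nothing read from it, Gm22513), 8 pairs higher, 4 lower and 0 protein genes.

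Of 879 values of single genes and pairs under an alternative, 777 kept their side of the threshold, 94 lost the call, 8 gained it and none that was called changed sign. Of the 57 genes, Gm24727 lost its call with the recalibrated p only (0.235). Levels of short genes depend on extraction and on reads shared with hosts and copies, and the rlog shrinks differences of low genes. Depth was not analysed here.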
